A study of Arabidopsis thaliana with 8 samples.

Results

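The transcripts described here are the probe sets whose intensity followed the labelled F5H genotype as a staircase, with fah-1 at one end, WT in the middle and F5H-OE at the other end. A probe set was selected by its log2 values alone. Every F5H-OE array had to lie above every WT array and every WT array above every fah-1 array, or the full reverse, and both steps between group means had to be at least 0.2 log2. Of 22746 probe sets 132 met this rule, or 0.580%. Of these, 95 (0.418% of all) were lowest in fah-1 and highest in F5H-OE and are called rising below, and 37 (0.163%) were highest in fah-1 and are called falling. These words name the order only. All 8 arrays and all 3 contrasts were used for the choice, so the values of the members are a description and no test of them is given.

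The RNA came from inflorescence stems of Arabidopsis thaliana, ecotype Columbia-0, harvested at 1.5 months of age, with stems of 5 plants pooled in each sample. WT (3 samples) carried no labelled change, F5H-OE (3 samples) is labelled as an F5H overexpression line, and fah-1 (2 samples) as a line that lost F5H function. No source used here gives the promoter that drives the F5H transgene or the number of lines behind F5H-OE. The design speaks of 3 biological replicates, and 2 samples of fah-1 were analysed here.

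Ferulate/coniferaldehyde 5-hydroxylase (F5H) is a cytochrome P450 that adds a hydroxyl group to the ring of coniferaldehyde and related compounds, the branch point between guaiacyl and syringyl lignin. In Arabidopsis stems syringyl lignin is laid down mainly in the fibres between the vascular bundles, while vessel walls are rich in guaiacyl lignin. Plants without F5H function lack syringyl lignin and sinapate esters, and strong expression of F5H shifts lignin towards syringyl units. The enzyme acts on metabolites and is not known as a regulator of transcription. In bulk stems, fewer cells of a type and less RNA per cell cannot be told apart.

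The steepest staircase of the 132 belonged to a probe set to which the platform annotation gives no gene. Its intensities were 198 and 258 in fah-1, 2212, 2080 and 1947 in WT, and 15433, 14699 and 15006 in F5H-OE. The arrays of each group lay close together and far from the next group. WT was 9.20-fold above fah-1 and F5H-OE 7.24-fold above WT, a difference of 6.06 log2 from end to end, or 66.7-fold. It was the 1 rising member in which both steps reached 1 log2, and the 1 rising member with at least 2 log2 between the ends. No probe set carries the name of F5H in the annotation used, and 8730 probe sets carry no gene. Which probe set measures F5H could thus not be read from the annotation, and whether the steepest one does was not tested. The staircase is therefore one of labelled genotype.

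**Figure D1:**
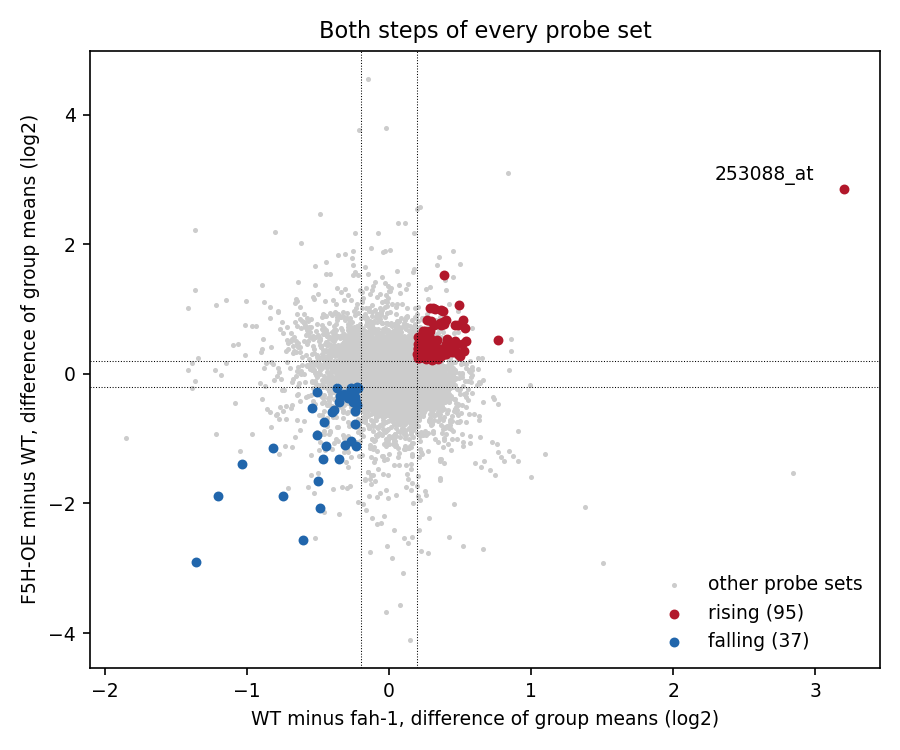
Each point is a probe set, with WT minus fah-1 on the x axis and F5H-OE minus WT on the y axis (differences of group means, log2), dotted lines at 0.2 log2 on either side of 0, and the 95 rising and 37 falling members in colour. The labelled point stands alone at 3.20 and 2.86, and most other rising members lie near the corner of the dotted lines.

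Apart from this probe set, the rising members formed shallow staircases. Their median step was 0.42 log2 from WT to F5H-OE and 0.30 log2 from fah-1 to WT. The same differences had medians of -0.02 and 0.02 log2 over all probe sets. The rule set the sign and the minimum of the members' steps, so this contrast is no result. The step to F5H-OE was the larger one in 68 of the 95, and the difference between F5H-OE and fah-1 reached 1 log2 in 22. The falling members were fewer and steeper, with median differences of -0.58 log2 between F5H-OE and WT and -0.35 log2 between WT and fah-1. In 29 of the 37 the step to F5H-OE was the larger one, 18 differed by at least 1 log2 between the ends, and 7 by at least 2 log2. The same shares over all probe sets were not counted. Over the whole array limma called 603 probe sets in F5H-OE against WT and 2 in fah-1 against WT. A larger step to F5H-OE is therefore not read as a trait of the members.

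**Figure D2:**
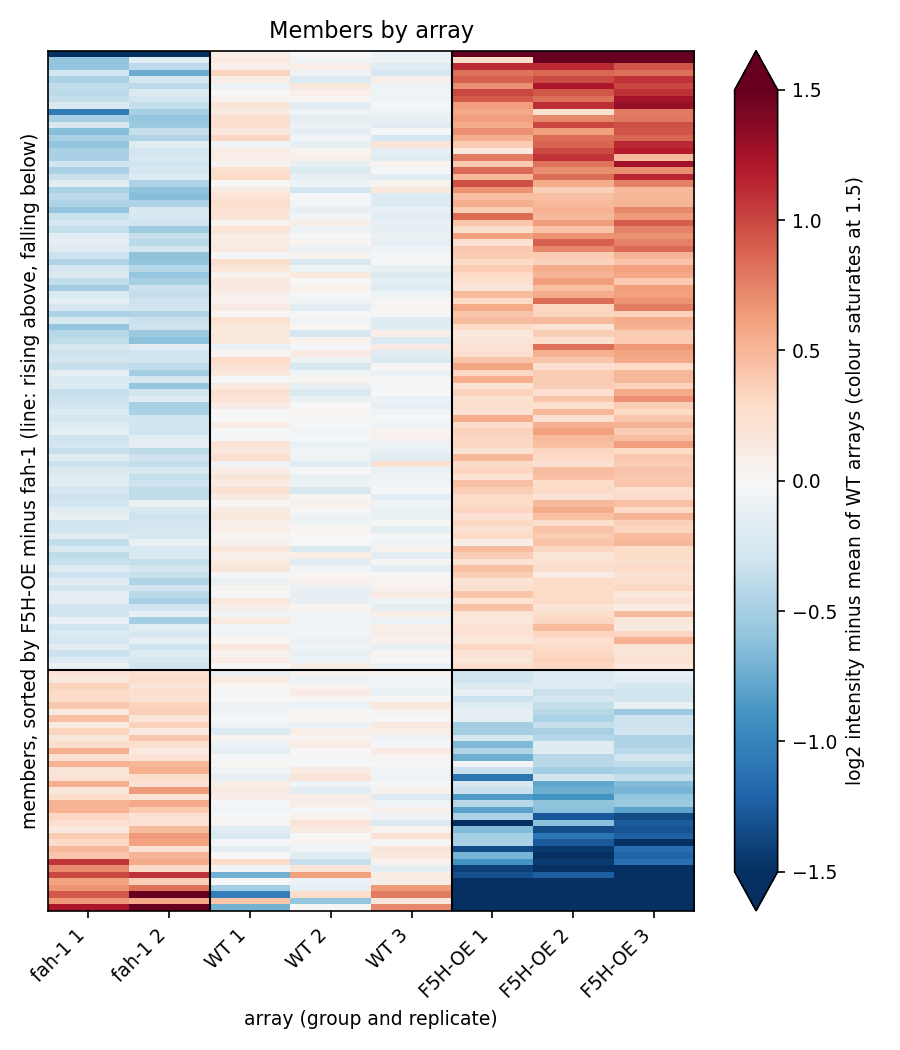
Rows are the 132 members sorted by F5H-OE minus fah-1, columns are the 8 arrays, and colour is the log2 intensity minus the mean of the WT arrays, saturating at 1.5. The 95 rising members are above the black line and the 37 falling members below it, and the strongest colours lie in the F5H-OE columns.

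The rising members with 1 annotated gene numbered 46, and several of those with the widest staircases encode receptor-like or other protein kinases, which relay signals at the plasma membrane or in the cell. AT5G48740, a leucine-rich repeat receptor-like kinase, had intensities of 42.1 and 48.2 in fah-1, 67.0, 67.9 and 55.9 in WT, and 138, 138 and 122 in F5H-OE. It was thus 1.41-fold higher in WT than in fah-1 and 2.09-fold higher in F5H-OE than in WT. AT1G09440, a protein kinase, stood at 289 and 273 in fah-1, at 486, 369 and 378 in WT, and at 631, 671 and 705 in F5H-OE. Its steps were more even, at 0.54 log2 below WT and 0.71 log2 above it. AT1G79620, a leucine-rich repeat receptor-like kinase known from vascular tissue, had 274 and 275 in fah-1, 454, 369 and 326 in WT, and 552, 532 and 539 in F5H-OE. The fah-1 and F5H-OE arrays agreed closely and the WT arrays were spread between them, with WT replicate 1 the highest.

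Further kinase genes were looked up after their values were seen. AT1G67510 and AT1G63430, both leucine-rich repeat receptor-like kinases, differed by 0.83 and 0.56 log2 between F5H-OE and fah-1. AT1G67510 was among the cleanest staircases, at 115 and 116 in fah-1, 161, 160 and 157 in WT, and 212, 200 and 203 in F5H-OE. AT5G65530 and AT5G35960, receptor-like cytoplasmic kinases, differed by 0.83 and 0.79 log2, and the protein kinase gene AT1G24030 by 0.92 log2. The kinase genes were not taken from a fixed list, and their share among the members was not tested.

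Genes of secretion, the wall and the cytoskeleton were also among the rising members. scpl48, a serine carboxypeptidase-like protein, had intensities of 1163 and 1055 in fah-1, 1533, 1209 and 1332 in WT, and 2088, 2918 and 3349 in F5H-OE. Most of that difference lay above WT, with a fold of 2.02 against 1.22 between WT and fah-1. AT4G08160, listed with the synonym ATXYN3 of a xylanase, stood at 239 and 309 in fah-1, at 419, 332 and 338 in WT, and at 469, 519 and 597 in F5H-OE. Xylanases cut the xylan backbone of the wall. AT4G38950, a kinesin-type microtubule motor, was dim, at 24.6 and 20.1 in fah-1, 27.9, 26.6 and 28.7 in WT, and 53.6, 40.7 and 46.8 in F5H-OE. A pair of cupredoxin-family genes, named after their values were seen, had log2 differences of 0.93 (AT3G27200) and 0.78 (AT5G26330) between F5H-OE and fah-1.

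AT1G14240, a nucleoside phosphatase of the GDA1/CD39 family, had the widest difference among rising members with a gene, 1.91 log2, and the least even arrays. It stood at 27.6 and 36.8 in fah-1 and at 46.0, 40.2 and 39.1 in WT. In F5H-OE it was 163 and 208 in replicates 2 and 3 but 50.3 in replicate 1, just above WT. AT1G58070 showed the same split, with 281 in F5H-OE replicate 1 against 502 and 573 in the others and 229 to 274 in WT. In AT5G38900, of the thioredoxin superfamily, both steps were over 0.5 log2 and the larger one, 0.77 log2, lay between WT and fah-1. It had 50.4 and 73.7 in fah-1, 114, 99.4 and 99.0 in WT, and 155, 123 and 178 in F5H-OE. The remaining named genes with wide differences between F5H-OE and fah-1 were AT1G21520 at 1.32 log2, AT3G56230, a BTB/POZ domain protein, at 1.24 log2, and AT2G17940 at 1.24 log2. Of the rising members without a gene, 251131_at and 248153_at followed the steepest one, with 1.35 log2 each.

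The falling members held 14 probe sets with 1 gene. HRD (HARDY), an AP2/ERF transcription factor known for drought tolerance when overexpressed, had the widest difference of these, -3.17 log2. Its intensities were 554 and 525 in fah-1, 471, 237 and 397 in WT, and 94.1, 44.3 and 51.3 in F5H-OE. F5H-OE was 5.92-fold below WT on clearly separate arrays, while WT was 1.52-fold below fah-1 with WT replicate 1 near the fah-1 arrays. AT1G19960 was the 1 named falling member in which both steps reached 1 log2. It stood at 618 and 656 in fah-1, at 188, 474 and 335 in WT, and at 125, 131 and 103 in F5H-OE, the WT arrays spreading widely between the ends. AT1G50590, a pirin-like protein of the cupin fold, had 227 and 159 in fah-1, 131, 84.9 and 113 in WT, and 57.8, 40.0 and 49.6 in F5H-OE.

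AT5G58680, an armadillo repeat protein, was the 1 named falling gene whose gaps between groups were both wider than any range within a group. It had intensities of 72.8 and 75.4 in fah-1, 49.9, 54.4 and 48.9 in WT, and 38.0, 33.6 and 34.6 in F5H-OE, with steps of -0.53 and -0.54 log2. CYP71B22, a cytochrome P450 of another family than F5H, stood at 282 and 274 in fah-1, at 240, 271 and 203 in WT, and at 83.9, 153 and 99.4 in F5H-OE. The highest WT array was almost level with fah-1, 0.02 log2 below it. AT1G12010, an ACC oxidase of ethylene synthesis, differed by -0.81 log2 between the ends and AT5G42250, of the alcohol dehydrogenase family, by -0.78 log2. In AT5G42250 F5H-OE replicate 1, at 181, was almost level with WT (182 to 189). The 7 falling genes not yet named were AT5G44060 at -1.02, AT3G50190 at -0.79, AT5G65840 at -0.71, AT2G15760 at -0.69, AT5G44820 at -0.67, AT2G03750 at -0.48 and AT5G40670 at -0.44 log2, the last 2 looked up after their values were seen.

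Of the falling members with no gene in the annotation used, 265837_at, 256766_at and 257382_at had the widest differences, -4.27, -3.09 and -2.62 log2. HRD, at -3.17 log2, lay between 265837_at and 256766_at. 265837_at had intensities of 651 and 786 in fah-1, 170, 277 and 460 in WT, and 31.3, 43.9 and 37.3 in F5H-OE, 19.2-fold from end to end. 256766_at stood at 1556 and 2279 in fah-1, at 399, 981 and 1400 in WT, and at 290, 208 and 179 in F5H-OE. 257382_at had 144 and 159 in fah-1, 63.2, 83.1 and 141 in WT, and 22.7, 24.0 and 27.3 in F5H-OE. In 256766_at the WT arrays filled much of the space between the other groups. In 265837_at and 257382_at the gap between F5H-OE and WT, 1.95 and 1.21 log2, was wider than the range of the WT arrays. In all 3 WT replicate 1 was the lowest WT array and WT replicate 3 the highest.

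**Figure D3:**
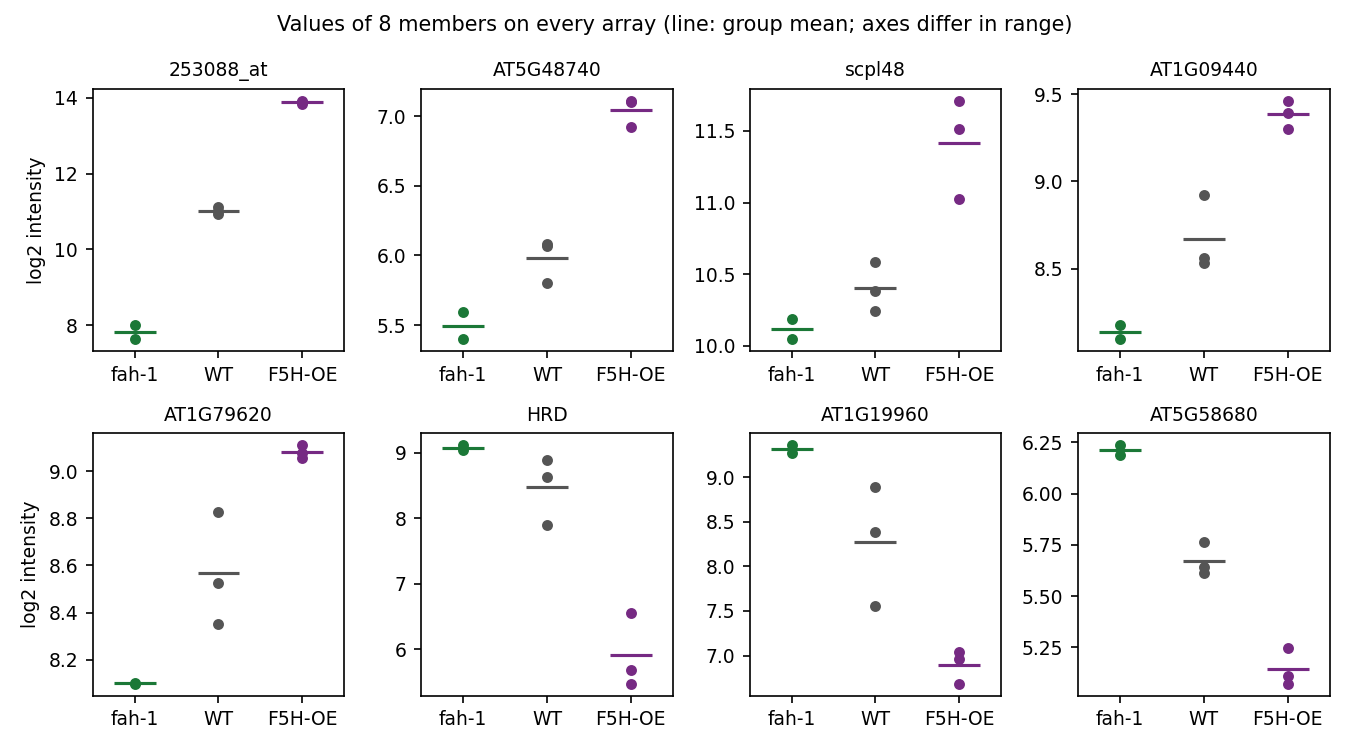
Log2 intensity on every array for 8 members, with fah-1, WT and F5H-OE on the x axis, 1 point per array and a line at each group mean, on axes of differing range. The probe set without a gene and AT5G58680 show tight groups, whereas the WT points of HRD, AT1G19960 and AT1G79620 are spread between the ends.

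Most staircases were narrow against the spread of replicates. The smaller of the gaps between neighbouring groups, from the nearest array of one to the nearest array of the other, had a median of 0.08 log2 and was under 0.05 log2 in 46 of the 132 members. In 8 members, 5 rising and 3 falling, both gaps were larger than the largest range of arrays within any group. These were the steepest probe set, AT1G67510, AT5G20580, AT5G58680 and 4 further probe sets without a gene, 254633_at, 255881_at, 260483_at and 263285_at. Near the threshold, 260833_at, 257129_at and 256453_at were kept with smaller steps of 0.20 log2 each, and 263653_at, 253588_at and 247527_at, with 0.20 log2 each after rounding, were just below it and left out. With no minimum for the steps 382 probe sets were in order.

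The same rule was applied to all 560 assignments of the 8 arrays to groups of 3, 3 and 2, to give the number expected from permuted labels. The mean was 13.6 probe sets and the median 4, against 132 with the labels as given. 3 assignments gave more than 132, and the highest, 226, placed F5H-OE replicate 1 in the middle with WT replicates 1 and 2. The directions differed in this respect. No assignment gave more than the 95 rising probe sets (mean 6.74), while 21 assignments gave more than the 37 falling ones (mean 6.84). Many assignments keep part of the true groups together, and the count says nothing about any 1 member.

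**Figure D4:**
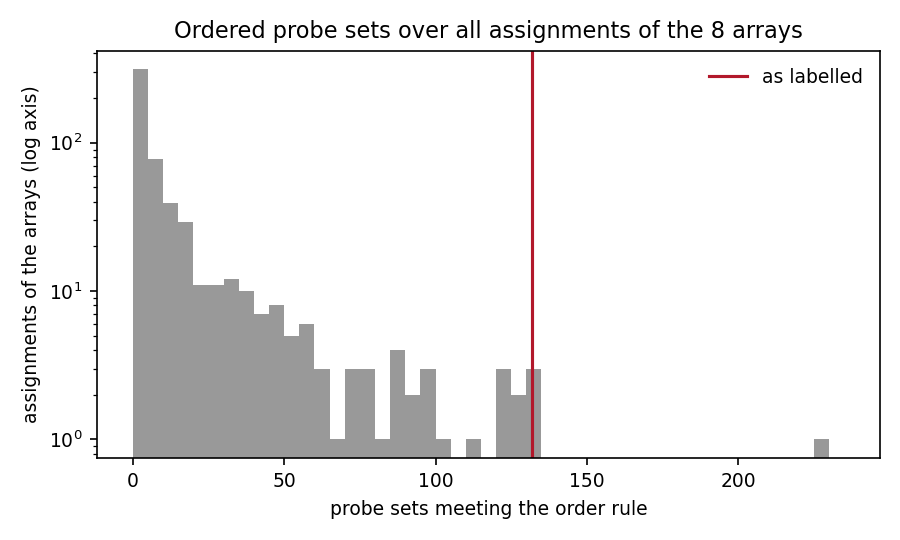
Number of probe sets meeting the order rule (x axis, bins of 5) over the 560 assignments of the arrays to groups of 3, 3 and 2 (y axis, log scale), with the labelled assignment as a line at 132. Most assignments gave fewer than 20, and 3 gave more than the labels.

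WT was not the middle group in every probe set that separated all 3 groups with both steps of at least 0.2 log2. There were 230 of these, of which 132 had WT in the middle, 94 had fah-1 in the middle and 4 had F5H-OE in the middle. Of the 94, 46 were highest in F5H-OE and 48 lowest. The excess of the WT-centred order lay in the rising direction, 95 against 46, and not in the falling direction, 37 against 48. After recentring the counts were 70 against 52 and 54 against 52. No test of these differences was made, since all are counts over the same arrays.

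Array medians were themselves in the order of the rule, from 112 and 113 in fah-1 over 113 to 116 in WT to 116 to 118 in F5H-OE (intensity). With each array recentred on its median, 124 probe sets were in order, 107 of them among the 132. The split was then 70 rising and 54 falling, so that 56.5% were rising against 72.0% as deposited. With recentred values 4 of the 560 assignments gave more rising probe sets than the labels and 8 gave more falling ones, and 104 probe sets had fah-1 in the middle. The split between directions and the rank of the rising count thus moved with the scaling. Of the 33 members named by rule, 31 still met the rule after recentring, the steepest probe set and all with a gene among them. The other two, 257129_at and 256453_at, stayed in order but had a step below 0.2 log2.

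Rising members shared a pattern within the WT group that the rule did not use. WT replicate 1 was the highest WT array in 66 of the 95 (69.5%), against 28.0% of all probe sets, and lay a median of 0.17 log2 above the mean of the other WT arrays, where all probe sets had -0.05. Falling members had a median of -0.05 log2 there, like all probe sets. Within F5H-OE, replicate 1 was the lowest array in 58 of 95 rising members (61.1%, against 46.4% of all probe sets) and the highest in 18 of 37 falling members (48.6%, against 33.7%). That array also had the lowest mean correlation with its group, 0.987 against 0.991 to 0.997 elsewhere, and a 3′ minus 5′ difference of 1.47 log2 at the GAPDH control probe sets, against 0.51 to 0.85 on the other arrays. The part of RNA quality in the staircases was not tested. Without that array 317 probe sets were in order, among them 128 of the 132. A member stays in order when an array is dropped and can be lost only through a step below 0.2 log2. Nothing is therefore read from the 128 that were kept.

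**Figure D5:**
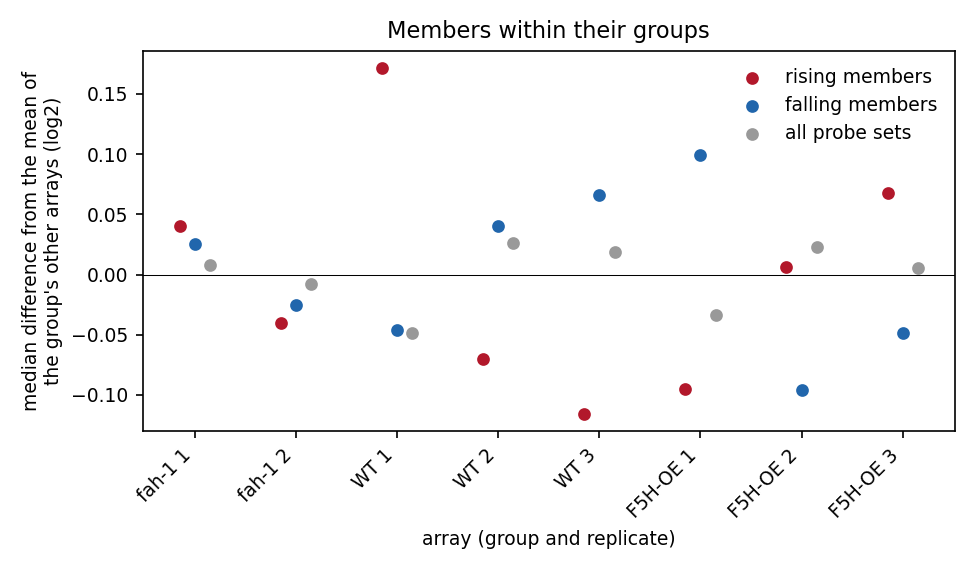
For each array (x axis), the median over rising members, falling members and all probe sets of the log2 difference from the mean of the other arrays of its group (y axis). Rising members stand 0.17 log2 above in WT replicate 1, and in F5H-OE replicate 1 rising members are lower and falling members higher than in the other F5H-OE arrays.

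Across contrasts the members passed limma's test unevenly, at an adjusted p under 0.05 over all probe sets. Since the rule used each contrast, nothing is read from these counts. Of the 132, 106 passed in F5H-OE against fah-1, where 1.97% of all probe sets were called, 41 in F5H-OE against WT (2.65%), and 1, the steepest probe set, in fah-1 against WT (0.00879%). QQS, an Arabidopsis gene linked to starch content and the other call in fah-1, was no member. It had intensities of 1747, 1696 and 1873 in WT, 336 and 181 in fah-1, and 568, 780 and 529 in F5H-OE, below WT in both lines.

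Genes of the known lignin pathway could be named only in part, with 3 of 19 monolignol genes measured. Of 116 genes on 14 lists of phenylpropanoid, wall, stress and tissue marker genes, 33 were measured under their own name, and 0 of these were members. With 0.580% of all probe sets being members, a count of 0 among 33 is near the background and nothing is read from it. None of the 33 was in order even with no minimum for the steps. HCT, an acyltransferase of the monolignol pathway, had overlapping groups, at 3815 and 4787 in fah-1, 4802, 3776 and 4078 in WT, and 4217, 4019 and 5021 in F5H-OE. REF1 (listed as ALDH2C4), the dehydrogenase that makes ferulic and sinapic acid, was highest in WT, and UGT75C1 (AT4G14090), an anthocyanin glucosyltransferase, was too.

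By list, 3 monolignol genes, 8 of sinapate esters and monolignol glucosides, 5 of lignin polymerisation, 7 of flavonoids and 3 of secondary wall polysaccharides were measured. limma called 1 sinapate gene (REF1) and 1 flavonoid gene (UGT75C1) lower in F5H-OE than in WT, and the xylan gene IRX10 higher in F5H-OE than in fah-1. Of the 2 measured glutathione S-transferases, GSTU25 was called higher in F5H-OE than in either other group. No other measured list gene was called in any contrast. The 3 measured xylan synthesis genes had group means in the order of the rising members, with overlapping arrays. Their differences lay mostly between WT and fah-1, at 0.55 log2 in IRX10, 0.46 in IRX15 and 0.34 in IRX15-L. From WT to F5H-OE the steps were 0.10, 0.02 and 0.19 log2, all under the minimum of 0.2 log2. IRX10 (listed as GUT2), a xylan glycosyltransferase, had intensities of 1016 and 930 in fah-1, 1602, 1364 and 1307 in WT, and 1534, 1372 and 1660 in F5H-OE. WT and F5H-OE overlapped, so the rule left it out. In IRX10, IRX15 and IRX15-L alike WT replicate 1 was the highest WT array, as in most rising members.

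Tissue markers could be checked only in part. The photosystem gene PSAE-1 was alike in all groups, from 7534 to 8433, and the phloem sugar exporter SWEET11 stood at 312 to 916 in WT, 528 to 619 in fah-1, and 576, 58.7 and 90.4 in F5H-OE. SWEET11 was thus low in F5H-OE replicates 2 and 3 only. F5H-OE replicate 1 was the highest F5H-OE array in 18 of the 37 falling members (48.6%, against 33.7% of all probe sets), HRD among them. It was the lowest in 14 of the 37 (37.8%, against 46.4%). HRD in that array, at 94.1, was below every WT array (237 to 471), as the rule required of every falling member. SWEET11, which was not a member, was there within the WT range. Nothing is read from this contrast. The part of phloem content in the falling members was not tested. None of the xylem vessel, epidermis and flower markers on the lists could be named, so the share of fibre, vessel or epidermal tissue was not measured.

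Members with 1 gene lay on all 5 chromosomes, and the other members were not placed. Of the 60 with 1 gene, 18 were on chromosome 1, 7 on chromosome 2, 8 on chromosome 3, 5 on chromosome 4 and 22 on chromosome 5, or 0.454% of all named nuclear genes and 0.738% of those on chromosome 5. Between AT5G38160 and AT5G62910, a stretch that earlier results of these data had shown to be dense in genes that differ between F5H-OE and WT, 10 of 1250 named genes (0.8%) were members, 5 rising and 5 falling. None of the 60 placed members were within 5 places of each other in the order of named genes. Chromosome 5 was thus the fullest by share, but its shares were read from the same arrays as the earlier result and were not tested.

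In other features the members resembled the rest of the array with some shifts. Their mean log2 intensity had a median of 7.57 against 6.85 for all probe sets, and 130 of 132 (98.5%) were above the brightest TrpnX control probe set, which has no plant target, on every array, against 85.9% of all. The median gene length was 2753 bp for rising and 1813 bp for falling members with a gene, against 2117 bp for all named probe sets. Fewer members than average could be named, 45.5% against 59.4%. AT5G44820 was the 1 member gene with another probe set of its own. That probe set, 249021_at, had 79.6 and 93.7 in fah-1, 68.2, 51.8 and 58.2 in WT, and 44.3, 45.4 and 52.2 in F5H-OE. Its group means were in the same order, and 1 WT array overlapped with F5H-OE.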

How the data were processed

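Biotin-labelled RNA of 8 stem samples was hybridised to Affymetrix arrays, according to the protocols in the labels. What the authors deposited is 1 linear intensity for each probe set and array. Per the submitters' processing notes these come from RMA, whose version and settings are not stated. RMA tends to equalise arrays, so a shift of most transcripts could not be seen. Values were put on the log2 scale from the deposited intensity, with no pseudocount and no filter. 64 control probe sets were left out. The design was written for log2 values and was kept.

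Genes came from the platform annotation, updated through a table for the TAIR10.1 assembly. Of 22746 probe sets 13513 had 1 gene, 503 several and 8730 none, and 13436 matched a locus. Of several probe sets of a gene, lists used the brightest. Roles in prose are background knowledge.

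Calls in the 3 contrasts came from lmFit and eBayes of limma 3.58.1 (R 4.3.3), with 2-sided p-values adjusted over the whole array after Benjamini and Hochberg, at 0.05. The order rule and limma were tested on simulated data. For the rule the planted steps were 1 log2, a size that both steps reached in 4 members. Smaller steps and noise shared between probe sets were not simulated. The p-values weigh a difference of group means against the spread between samples, estimated over all 3 groups together. That spread may be partly technical, and the number of arrays limits the precision.

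The members and lists were chosen with earlier results of these data known. Named genes were, per direction, the 12 members with 1 gene and the widest difference between F5H-OE and fah-1, the 5 with the largest smaller step, 3 without a gene, list genes among the members, and the 3 nearest to the step minimum on either side. QQS and 253088_at, the probe set with the steepest staircase, were added from earlier results. Alternatives were recentred or quantile normalized values, a filter on dim probe sets, other step minimums, array weights, a block for the replicate number, and leaving out each array.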

Additional observations from a re-analysis of the deposited data

How the results depend on the processing

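The steepest probe set met the order rule in every alternative tried. Of the 132 ordered probe sets, 57 (39 rising, 18 falling) did so under recentring, quantile normalization, the replicate block and each array left out, a combination chosen after seeing the data. HRD, AT5G48740 and AT5G58680 were among them. AT1G14240, AT1G58070, scpl48, CYP71B22 and AT1G12010 no longer met the rule with the replicate block. Step minimums of 0, 0.3 and 0.5 log2 gave 382, 58 and 13 ordered probe sets, of which 266, 38 and 5 were rising and 116, 20 and 8 falling. Leaving out 1 array gave 152 to 317, with 110 to 186 rising and 42 to 131 falling. The number passed 1.5 times the main one without WT replicate 3 (226), without F5H-OE replicate 1 (317) and without fah-1 replicate 1 (282). Fewer arrays make the rule easier to meet, but the number also depended on which array was left out. It was 157 without F5H-OE replicate 2 and 152 without F5H-OE replicate 3. With the replicate block 246 probe sets were in order, 170 rising and 76 falling, and 112 of the members were kept. Deviations of same-numbered WT and F5H-OE arrays correlated at 0.17, 0.33 and -0.02. WT replicate 1 and F5H-OE replicate 1 correlated best with each other, as did WT replicate 2 and F5H-OE replicate 2. WT replicate 3 and F5H-OE replicate 3 did not. Array numbers are thus not shown to pair samples throughout. limma calls with the block were 401 in F5H-OE against WT and 229 in F5H-OE against fah-1. Array weights gave 2526 and 2878 in place of 603 and 449. With 1 array left out they were 237 to 1758 in F5H-OE against WT, 69 to 1554 in F5H-OE against fah-1 and 1 to 3 in fah-1 against WT, where a lone fah-1 array borrows the spread of the other groups. The highest counts came without F5H-OE replicate 1 (1758 and 1554). 2 falling members were not above the control probe sets on every array, and their differences are open to background.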
